A study of Drosophila melanogaster with 2 samples.

Results

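Chromatin immunoprecipitation peaks of the zinc finger protein Escargot (Esg) were examined at 10 genes that mark neurons of Drosophila melanogaster in general, out of 13968 protein-coding genes on the 7 chromosome arms. The genes were the ELAV-family RNA-binding protein genes elav, fne and Rbp9, the synaptic genes brp, Syt1, nSyb and Syn, and Appl, futsch and onecut. A peak was given to one of them when its nearest protein-coding start site was that gene's, or when its summit lay in the gene body. By this rule 6 of the 4397 analysed peaks, those that passed a reproducibility threshold between replicates and are called thresholded peaks here, belonged to the 10 genes. The samples were whole embryos of 0 to 24 h from the strain esg-GFP, which carries an insertion targeting esg and expresses an esg-eGFP fusion protein. Immunoprecipitation was with an antibody against GFP, per the labels' description, although the antibody tag of the labels names esg itself. There was 1 group, with 2 biological replicates from the same donor strain, and chromatin was sonicated to 200 to 800 bp. The labels do not say whether an untagged copy of esg remained, the labelled control experiment was not analysed here, and read depth is unknown.

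Pan-neuronal genes are active in nearly all differentiated neurons and largely silent in other tissues, and their products include RNA-processing proteins and the machinery of synaptic transmission. Esg belongs to the Snail family, whose members bind E-boxes, act mainly as repressors and are known in the fly embryo from neuroblasts, tracheal cells and imaginal precursors. Whole embryos mix all of these cells with neurons, so strong occupancy in few cells and weak occupancy in many cells cannot be told apart.

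All 3 ELAV-family genes and the synapsin gene Syn had a thresholded peak. The reference sequence at the strongest peak of each of the 4 genes is shown because these summits carry the result and differ in their E-boxes. Each stretch covers 100 bp on either side of the summit, in dm6 coordinates, read 5′ to 3′ on the gene's own strand from the RefSeq copy of the Release 6 assembly. Capitals mark E-boxes of the form CANNTG. The elav stretch is X:523390-523590 on the minus strand, the Rbp9 stretch is 2L:2957671-2957871 on the plus strand, the fne stretch is X:12923413-12923613 on the plus strand, and the Syn stretch is 3R:10213528-10213728 on the plus strand.
elav peak 1: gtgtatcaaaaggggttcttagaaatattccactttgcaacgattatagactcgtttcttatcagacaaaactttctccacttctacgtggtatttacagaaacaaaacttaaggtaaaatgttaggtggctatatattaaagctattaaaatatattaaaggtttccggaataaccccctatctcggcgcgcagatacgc
Rbp9 peak 1: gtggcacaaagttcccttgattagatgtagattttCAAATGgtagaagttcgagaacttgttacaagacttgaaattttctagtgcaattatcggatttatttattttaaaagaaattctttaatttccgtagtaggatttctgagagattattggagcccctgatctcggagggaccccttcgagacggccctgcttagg
fne peak 1: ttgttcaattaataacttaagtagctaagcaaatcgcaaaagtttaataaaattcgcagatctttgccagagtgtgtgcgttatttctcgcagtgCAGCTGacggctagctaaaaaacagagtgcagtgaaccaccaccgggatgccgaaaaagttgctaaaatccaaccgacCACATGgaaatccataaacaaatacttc
Syn peak 1: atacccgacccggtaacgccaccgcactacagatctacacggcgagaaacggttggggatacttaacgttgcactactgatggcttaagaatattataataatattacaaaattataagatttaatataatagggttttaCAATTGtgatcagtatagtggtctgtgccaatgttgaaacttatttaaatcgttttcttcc
The elav stretch held no E-box, the Rbp9 and Syn stretches held 1 each, and the fne stretch held 2, of which CAGCTG began 5 bp before the summit.

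The thresholded peaks were unevenly spread over the 10 genes. elav and fne had 2 peaks each and Rbp9 and Syn had 1 each, whereas brp, Syt1, nSyb, Appl, futsch and onecut had none. The count of 4 of 10 genes stood beside 22.3% of all protein-coding genes with a peak by the same rule (3120 of 13968). The 10 genes are long, with a median length of 29703.5 bp and a range of 7405 to 48544 bp, against a median of 2164.5 bp for all protein-coding genes. Among the 2146 genes within that range of length, 992 had a peak, which is 46.2%, so the share among the 10 was not above theirs. The 2146 genes were taken by the range alone, with no matching to the lengths of the 10 within it. Genes longer than the longest of the 10 had a peak in 60.6% of cases (203 of 335), and none of the 10 is among them. When the summit had to lie at most 500 bp from the gene's own start site, 1 of the 10 genes, elav, had a peak, against 16.1% of all protein-coding genes. All 3 ELAV-family genes had a peak, against 1 of the other 7 genes, and this difference was not tested. The 4 genes with a peak span 13673 bp (Rbp9), 13992 bp (elav), 31754 bp (Syn) and 32941 bp (fne). The 6 without one include both the shortest, nSyb and onecut at 7405 and 9095 bp, and the longest, brp, futsch and Appl at 37801, 44618 and 48544 bp, with Syt1 at 27653 bp. The part of length in the difference was not tested.

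**Figure D1:**
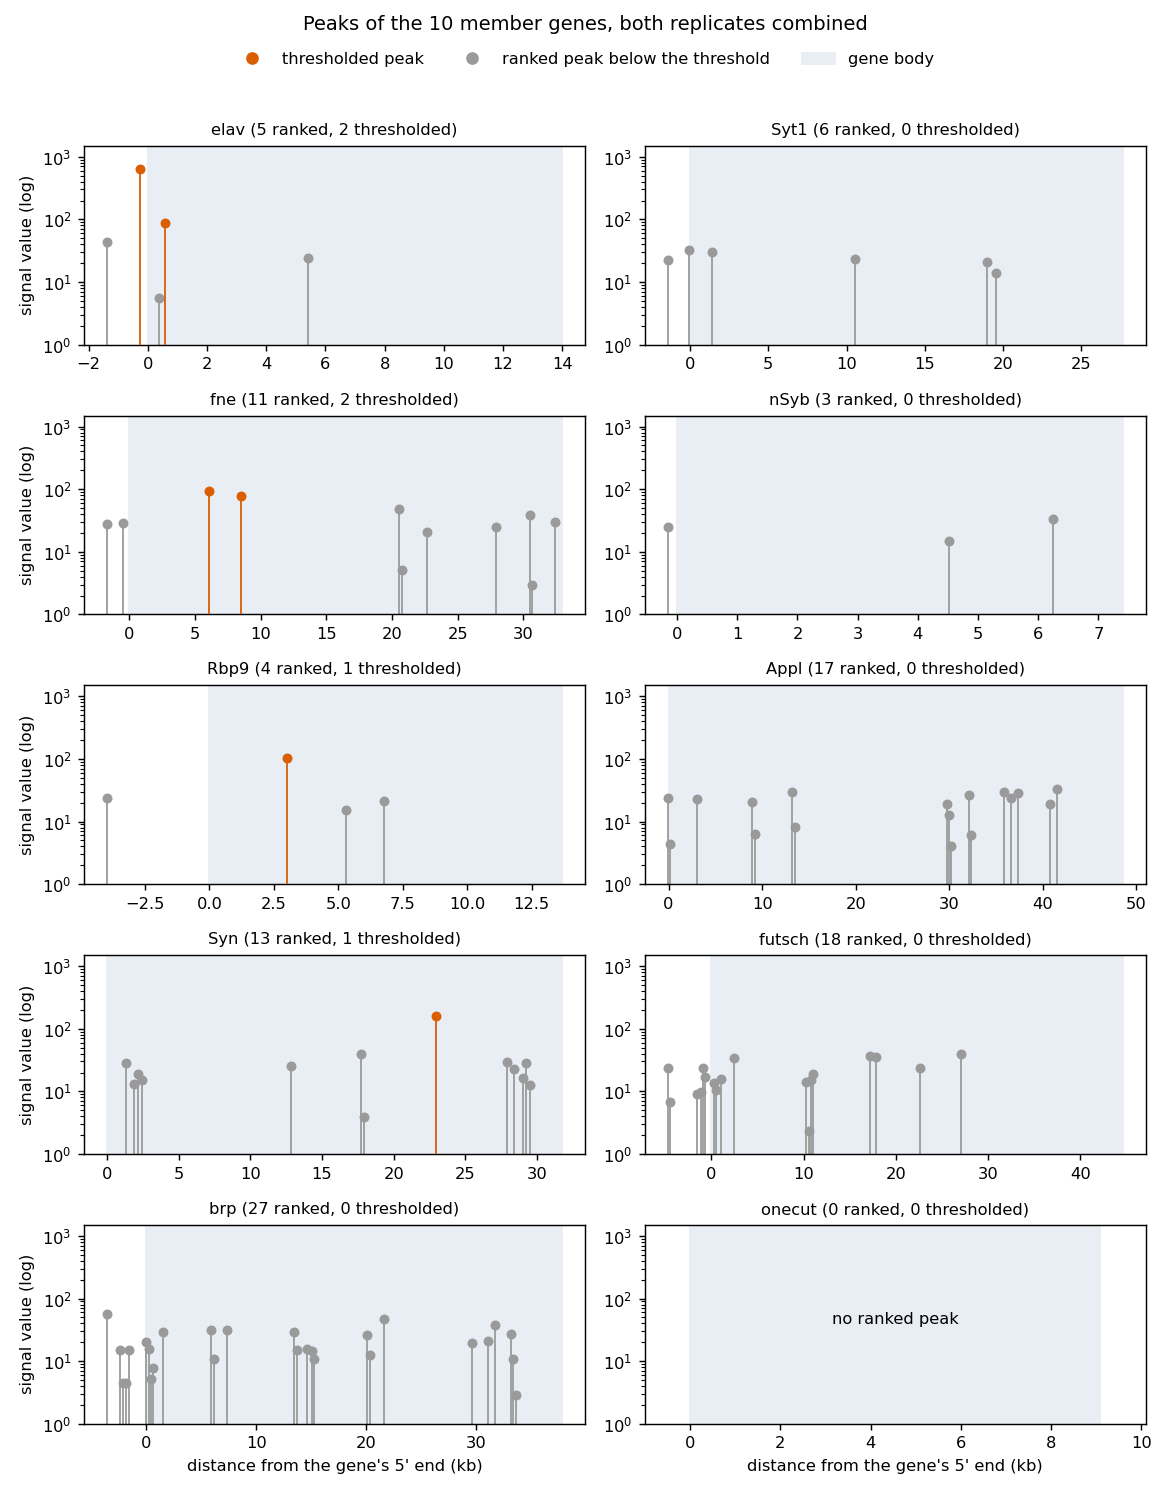
Signal value (log axis) of every peak of the 10 genes in the ranked list of both replicates combined, against distance from the gene's 5′ end in kb, with the gene body shaded. Orange points are the 6 thresholded peaks and grey points are ranked peaks that did not pass; elav, fne, Rbp9 and Syn have orange points and onecut has no peak at all.

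elav encodes the nuclear RNA-binding protein that is the standard marker of fly neurons and directs neuronal splicing and poly(A) site choice. It lies on X from 509235 to 523226 on the minus strand (FBgn0260400) and has 2 annotated start sites. Its stronger peak, at X:523362-523622 with the summit at 523490, lay 264 bp upstream of the start site at 523226. The authors' signal value for this peak, whose unit is not stated and which served only to rank peaks within a list, was 629.6. It ranked 109 of 4397, at percentile 97.5 of the list. In replicate 1 the signal value was 287.0, rank 157 of 61170 ranked peaks, and in replicate 2 it was 340.4, rank 90 of 32565. The peak was thus near the top of both replicates' lists, and it was on the thresholded list of each. The summits in the replicates' own lists were 7 and 10 bp from the combined summit. Unless stated otherwise, a replicate's ranks here and below are among its ranked peaks, before the threshold.

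The second elav peak, at X:522483-522818 with the summit at 522651, lay 575 bp downstream of the same start site, in an elav intron of 1289 bp. Its signal value was 88.7, rank 2813, with 44.2 in replicate 1 and 43.6 in replicate 2. It was on neither replicate's thresholded list, and its rank was 3206 of 61170 ranked peaks in replicate 1 and 2907 of 32565 in replicate 2. The 2 elav summits were 839 bp apart, and the 2 fne summits 2484 bp apart. The median between neighbouring peaks of the list was 11040 bp, but the rule favours close summits within 1 gene. Both summits also lay within arg, the arginase gene, which runs across elav on the plus strand from 509435 to 528028. The noncoding RNA gene lncRNA:enrr, on the minus strand from 513106 to 523226, shares the elav start site. The files hold no transcription measurement, so these overlapping genes cannot be told apart as the genes the peaks belong to.

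fne (found in neurons) encodes a close relative of Elav that takes part in neuronal splicing. The gene lies on X from 12917477 to 12950417 on the plus strand (FBgn0086675), and both of its peaks were in the same intron of 18807 bp. The first, at X:12923345-12923680, had its summit 6029 bp downstream of the start site at 12917484 and a signal value of 92.7, rank 2656. The second, at X:12925829-12926164, had its summit 8513 bp downstream of that start site and a signal value of 77.4, rank 3350. The replicates differed more at fne than at the other 3 genes. For the first peak the signal value was 29.9 in replicate 1, rank 6380, and 59.3 in replicate 2, rank 1971. For the second it was 29.7 in replicate 1, rank 6532, and 48.8 in replicate 2, rank 2517. Both fne peaks were on the thresholded list of replicate 2 and not on that of replicate 1, so the fne result rests on replicate 2 more than on replicate 1.

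Rbp9 encodes the third ELAV-family protein, present in neurons and also in the ovary. It lies on 2L from 2954762 to 2968434 on the plus strand (FBgn0010263). Its peak, at 2L:2957603-2957938 with the summit at 2957771, lay 860 bp downstream of the start site at 2956911, in an intron of 1882 bp. The signal value was 103.0, rank 2341, near the middle of the list. Replicate 1 had 48.3 at this peak, rank 2845 of 61170 ranked peaks, and replicate 2 had 49.99, rank 2459 of 32565. Both had it on the thresholded list, low down in each. It was at rank 2647 of 3105 in replicate 1 (percentile 14.8) and rank 2359 of 3351 in replicate 2 (percentile 29.6). Within the ELAV family, elav peak 1 and this peak were the ones on the thresholded lists of both replicates.

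Syn encodes synapsin, a phosphoprotein that tethers synaptic vesicles. It lies on 3R from 10190689 to 10222442 on the plus strand (FBgn0004575) and has 1 annotated start site. Its peak, at 3R:10213460-10213795 with the summit at 10213628, lay 22939 bp downstream of that start site in an intron of 10655 bp. The nearest start site belongs to Timp, the tissue inhibitor of metalloproteases gene, which is nested in Syn on the minus strand from 10203875 to 10213007. The summit lay 621 bp upstream of the Timp start site, so Syn is counted by its gene body alone. The signal value was 161.1, rank 1295, with 87.4 in replicate 1 (rank 1260) and 71.1 in replicate 2 (rank 1525). Both replicates had the peak on their thresholded lists.

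All 6 summits were in introns, that of elav peak 1 in an intron of arg, against 51.5% of the 4397 summits of the list (2264 summits). The rule takes summits in gene bodies, and 5 of the 6 lay in the body of their own gene. The contrast with the list is therefore partly set by the rule. Of the 6, 1 was within 500 bp of a protein-coding start site, against 39.7% of the list (1744 summits). Both replicates' thresholded lists held 3 of the 6, namely elav peak 1 and the Rbp9 and Syn peaks, against 57.5% of the list (2529 peaks). Before the threshold, both replicates' ranked lists held all 6, as they did 99.5% of the list each. The 6 peaks ran from rank 109 to rank 3350, so that elav peak 1 stood alone near the top and 4 of the 6 were below the middle of the list. The other thresholded list of both replicates, of 3739 peaks on the arms, also held all 6. It held 1 further elav peak, at X:522689-523024 with the summit 369 bp downstream of the start site. That peak overlapped elav peak 2 and had a signal value of 5.50, rank 3689 of 3739.

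**Figure D2:**
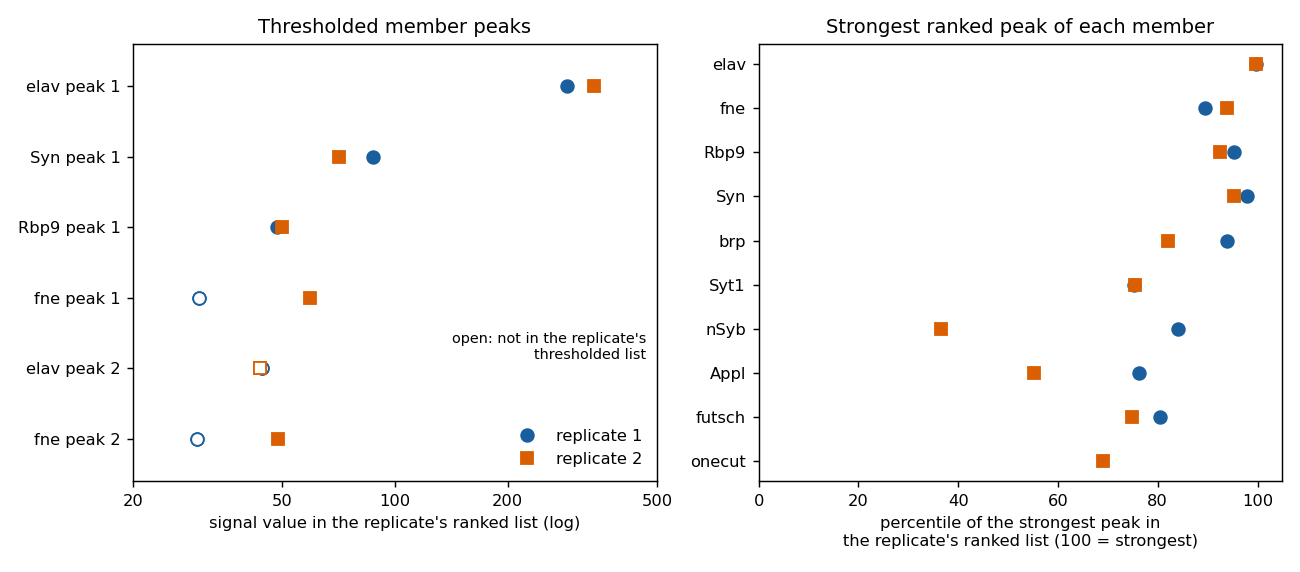
Left, signal value (log axis) of the 6 thresholded peaks in the ranked list of replicate 1 (circles) and replicate 2 (squares), open where the replicate's thresholded list lacks the peak. Right, percentile of each gene's strongest peak within each replicate's ranked list, 100 being the strongest, which need not be the same peak in both replicates. elav reaches 99.7 in both replicates, and onecut has a value in replicate 2 alone. nSyb is at 84.1 in replicate 1 and 36.6 in replicate 2, from different peaks. The nSyb peak at 36.6 in replicate 2 is at 52.2 in replicate 1.

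The 6 genes without a thresholded peak were followed into the longer list that ranks peaks before the reproducibility threshold. The threshold was an irreproducible discovery rate (IDR) of 0.01, a −log10 value of 2. On the arms 4484 ranked peaks reached that value and 4397 were thresholded peaks, so the value alone does not give the thresholded list. In the longer list 9 of the 10 genes had a peak, all but onecut, against 79.9% of all protein-coding genes. Among genes of the length range of the 10 the share was 95.8%, so most genes in that range had one too. Besides the 6 thresholded peaks, the 10 genes had 98 ranked peaks. Those 98 had a median signal value of 20.4 and a range of 2.36 to 57.7, and 0 of the 98 reached a −log10 IDR of 2. Just inside the threshold was fne peak 1, with a −log10 IDR of 2.01 and a signal value of 92.7, and the thresholded peak of lowest signal value was fne peak 2 at 77.4. Just outside was a brp peak with a −log10 IDR of 1.39 and a signal value of 57.7.

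brp encodes Bruchpilot, the scaffold of the presynaptic active zone. It lies on 2R from 9503765 to 9541565 on the plus strand (FBgn0259246) and had 27 ranked peaks. Its strongest, at 2R:9500038-9500373, lay 3559 bp upstream of the gene in an intron of Wnt2, a gene of a secreted signalling protein. The signal value was 57.7, rank 4879 of 59798, with 39.2 in replicate 1 and 20.7 in replicate 2. The next, in a brp intron 8958 bp downstream of a start site, had a signal value of 47.7, with 23.3 in replicate 1 and 24.8 in replicate 2. Of the 6 genes, brp came closest to the threshold.

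Syt1 encodes synaptotagmin, the calcium sensor of vesicle fusion, and lies on 2L from 2772327 to 2799979 on the minus strand (FBgn0004242). Its strongest ranked peak was at its start site, 77 bp upstream, with a signal value of 32.8 (rank 15588), 21.7 in replicate 1 and 20.7 in replicate 2. nSyb encodes neuronal synaptobrevin, the vesicle SNARE protein, and lies on 3L from 1630348 to 1637752 on the minus strand (FBgn0013342). Its strongest ranked peak was in the 3′ UTR with a signal value of 33.4 (rank 14932), 17.2 in replicate 1 and 13.6 in replicate 2. A weaker nSyb peak 155 bp upstream of a start site had a signal value of 24.5, with 14.0 in replicate 1 and no overlapping peak in replicate 2. Neither of the peaks at these start sites reached the threshold, and the nSyb one had a value in replicate 1 alone.

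Appl encodes the fly relative of the amyloid precursor protein, a neuronal membrane protein, and lies on X from 530501 to 579044 on the plus strand (FBgn0000108). It had 17 ranked peaks, the strongest in a coding exon with a signal value of 33.1 (rank 15312), 16.7 in replicate 1 and 10.3 in replicate 2. futsch encodes a microtubule-associated protein of axons and of the neuromuscular junction, and lies on X from 1409069 to 1453686 on the plus strand (FBgn0259108). It had 18 ranked peaks, the strongest in a coding exon with a signal value of 39.0 (rank 9997), 20.4 in replicate 2 and no overlapping peak in replicate 1. onecut encodes a neuronal homeodomain transcription factor and lies on chromosome 4 from 598555 to 607649 on the minus strand (FBgn0028996). It had no peak in the ranked list of replicate 1, and 3 in that of replicate 2, with signal values of 18.6, 15.9 and 15.6. Chromosome 4 held 2 of the 4397 peaks, and 2.5% of its 80 protein-coding genes had a peak, against 24.9% of the 2196 genes on X.

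Some of the genes without a peak of their own lay close to a thresholded peak given to a neighbour. A summit 1789 bp upstream of the nearest nSyb start site had a signal value of 199.8, rank 970, and was 170 bp from a start site of Bgb, which encodes a partner of Runt-domain transcription factors. The strong elav peak was also the closest to Appl, 7011 bp upstream of its first start site. elav and Appl are on opposite strands with 7275 bp between them. That stretch is not free of other genes, since arg runs into it as far as 528028. A start site of CG4293 also lies there, 6359 bp from the summit of the strong elav peak. The closest summit to futsch lay 10202 bp upstream, with a signal value of 193.9. For brp and Syt1 the summits closest to a start site were 28491 and 29544 bp downstream of it, past the 3′ end of each gene. For onecut the closest was 375318 bp upstream. No thresholded summit was thus near the start sites of brp, Syt1 or onecut.

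The letters around the summits were compared with those of the whole list, with every motif searched on both strands. An E-box CANNTG was within 100 bp of 3 of the 6 summits, against 57.3% of the 4397. The matches were CAATTG at Syn, 40 bp after the summit, CAAATG at Rbp9, 65 bp before it, and CAGCTG and CACATG at fne peak 1, 5 bp before and 73 bp after it. CAGGTG is the E-box known for Snail-family proteins and a subset of CANNTG. It was at 0 of 6 summits, against 5.28% of the list (8.7% in windows 1000 bp towards lower coordinates). CAGGTA, which shares its first 5 letters, was likewise at 0 of 6, against 4.03%. ACAGTG was at 0 of 6 against 20.2%, and TATCGATA was at 0 of 6 against 2.09%. TTAAAA was at 3 of 6 (elav peak 1, Rbp9 and fne peak 2), against 53.4%. GAGAG, the core of the GAGA factor's sites, was at 2 of 6, with 3 matches at elav peak 2 and 1 at Rbp9, against 19.8%. With 6 peaks these counts describe the letters at these summits and say nothing of which factor bound there.

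GC content within 100 bp was 35.8% and 46.3% at the 2 elav summits, 40.3% and 30.3% at the 2 fne summits, 38.8% at Rbp9 and 36.3% at Syn. The median of the 6 was 37.6%, against 33.3% for the list, whose quartiles were 29.9% and 37.8%. Within 50 bp of the summit the medians were 29.2% for the 6 and 29.7% for the list, so the higher GC content of the 6 was not present there; within 200 bp they were 42.1% and 38.2%. elav peak 2 was the richest of the 6, at the 94th percentile of the list, and fne peak 2 was the only one below the list's median.

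**Figure D3:**
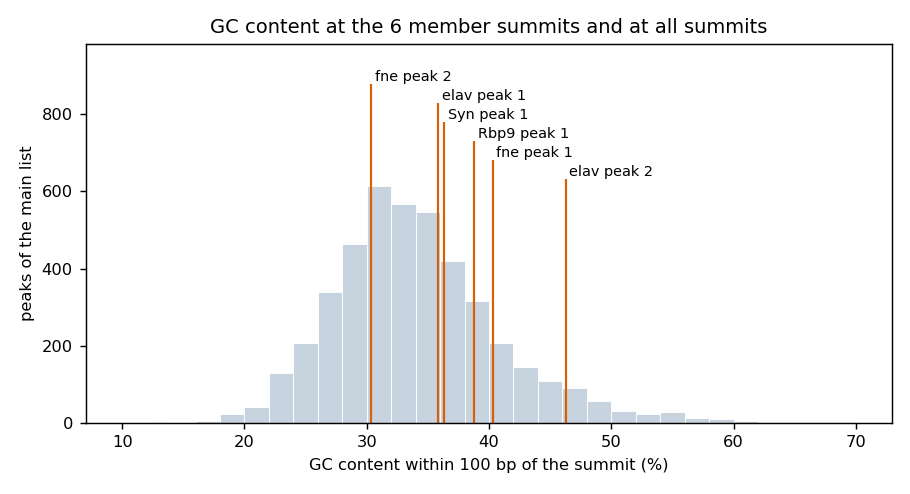
Histogram of GC content (%) within 100 bp of all 4397 summits, with a vertical line at each of the 6 summits of the 10 genes. The lines run from 30.3% at fne peak 2 to 46.3% at elav peak 2, and 5 of the 6 lie above the list's median of 33.3%.

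Other neuronal genes were counted in the same way, and the lists were not tested against each other. Of 11 further neuronal RNA-binding protein genes, 9 had a peak and 5 had one within 500 bp of a start site. The share of all protein-coding genes with a summit within 500 bp was 16.1%. Of the 11, msi, which encodes Musashi, had a signal value of 806.4 (rank 59) with its summit 228 bp from its own start site. The gene mbl, which encodes the splicing factor Muscleblind, had 470.9 (rank 215) with its summit 2782 bp from its own start site. The 11 genes are very long, with a median of 92306 bp against 29703.5 bp for the 10 genes. The share of genes longer than the longest of the 10 with a peak was 60.6%. Of 20 synaptic vesicle release genes, 3 had a peak, none of them by the gene body, and 2 had one within 500 bp. The strongest were given to the syntaxin gene Syx1A, with a signal value of 193.0, and to comt, the NSF gene, with 95.9. These summits lay 6604 bp (Syx1A) and 141 bp (comt) from the gene's own start site. The median length of the 20 genes, 14274.5 bp, was below that of the 10 genes. A peak was thus at 1 of the 4 synaptic genes among the 10 and at 3 of the 20 vesicle release genes. The share was 22.3% of all protein-coding genes and 46.2% of genes within the length range of the 10.

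Neurotransmitter synthesis and transport genes had a peak in 3 of 14 cases, none within 500 bp of a start site. The strongest were at ChAT, the choline acetyltransferase gene, with a signal value of 183.8, and at the vesicular glutamate transporter gene VGlut with 96.5. Of 15 neuronal ion channel genes 5 had a peak, led by the potassium channel genes KCNQ with 659.5 (rank 99) and sei with 180.7. Of 14 axon and synapse adhesion or transport genes 7 had a peak, led by Ank2, an ankyrin gene, with 423.8 and by sli, which encodes the axon guidance ligand Slit, with 236.1. Of 9 glial genes 3 had a peak, led by moody, a receptor gene of the blood-brain barrier, with 481.3 and by loco with 150.2. From each gene's own start site the summits were 14442 (ChAT), 1621 (VGlut), 4821 (KCNQ) and 80 bp (sei) away. For Ank2, sli, moody and loco the distances were 275, 3719, 157 and 1664 bp. Within 500 bp of a start site, 2 of the 15 ion channel, 4 of the 14 adhesion or transport and 2 of the 9 glial genes had a peak. Over all 6 lists 30 of 83 genes had a peak (36.1%), against 4 of the 10 pan-neuronal genes and 22.3% of all protein-coding genes. Among genes within the length range of the 10 the share was 46.2%. Median lengths were 44517 bp for the ion channel genes and 33444.5 bp for the adhesion or transport genes. They were 7381 bp for the neurotransmitter genes and 4145 bp for the glial genes. The part of length in these counts was not tested.

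**Figure D4:**
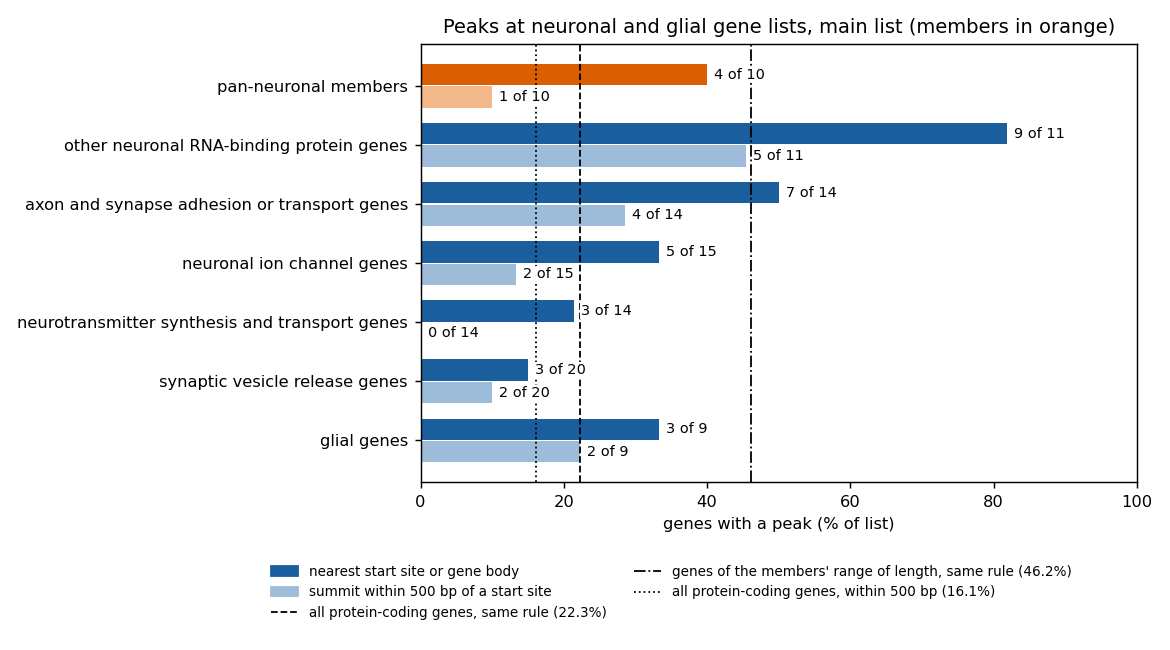
Share of genes with a thresholded peak (%) in the 10 pan-neuronal genes (orange) and in 6 other neuronal or glial lists (blue), by nearest start site or gene body (dark) and by a summit at most 500 bp from the gene's own start site (light). Vertical lines mark 22.3% for all protein-coding genes and 46.2% for genes of the length range of the 10 by the first rule, and 16.1% for all protein-coding genes by the second; the bar of the 10 genes lies between the first pair of lines.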

How the data were processed

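Peak lists of 2 biological replicates of anti-GFP chromatin immunoprecipitation sequencing were used, with 1 group and no second condition, so no test was run. The deposited text descriptions give dm6 as the build and name the replicates' alignments, a control alignment and an IDR selection as the steps behind the peaks. Aligner and peak caller: not given in the sources used here. The deposited signal value of a peak has no stated unit and was used to rank and describe peaks within a list. A deposited score of at least 830 held in each thresholded list. A −log10 of each peak's global IDR, at most 5, is in the deposited ranked lists.

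The main list was the one named conservative, with 4419 peaks, of which 4397 lay on the 7 arms. Replicates 1 and 2 had 3105 and 3351 thresholded peaks there. Depth is unknown, so no interval is given. Genes came from Ensembl release 115 (BDGP 6.54) and sequence from the RefSeq Release 6 assembly, and every peak and gene lay within its arms. Peaks of 2 lists matched when they overlapped by at least 1 bp, and the overlapping peak with the nearest summit was taken. Positions are 1-based. Named genes were the 10 members, genes nearest to or overlapping their peaks, and the 2 genes with the strongest peak in each other list; genes nearest to members without a peak were named after seeing the data. Members and lists were chosen with earlier results of these data known. Alternatives were other ways to give peaks to genes, the other list, each replicate's own list, the stronger part of the list and other windows. The comparison with genes of the members' range of length was chosen after seeing the data. The tools were pandas 2.3.3, numpy 2.4.6, matplotlib 3.10.9 and scipy 1.17.1 under Python 3.11.15, and the functions were tested on simulated data.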

Additional observations from a re-analysis of the deposited data

How the results depend on the processing

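No paired analysis was possible because there is 1 group. The share of protein-coding genes with a peak was 22.3%. It was 20.7% by the nearest start site alone, 11.1% by gene body alone, and 16.1%, 19.1% and 38.0% by a summit within 500, 1000 and 5000 bp of a start site. The other thresholded list gave 19.4%, and each replicate's own list gave 17.3% to 18.5%. The stronger 50% of the list gave 13.6%. Genes of the members' range of length gave 46.2% and longer genes 60.6%. Of the 10 genes, 4 had a peak. The count was 1 within 500 bp (elav), 2 within 1000 bp (elav and Rbp9) and 2 in the stronger 50% of the list (elav and Syn), and it was 3 by the nearest start site alone (elav, fne and Rbp9), 3 within 5000 bp (elav, Rbp9 and nSyb, which gains a peak there while fne and Syn lose theirs) and 3 to 4 in a single replicate's list. Their 6 peaks became 1 within 500 bp, 3 within 1000 bp, 2 in the stronger 50% and 3 to 5 in a single replicate's list. fne had no peak in the list of replicate 1 alone. CAGGTG stayed at 0 of the peaks in every window tried, and the median GC content at the summits was 37.6%, with 29.2% within 50 bp (all peaks 29.7%) and 46.0% in windows 1000 bp towards lower coordinates (all peaks 41.8%). The cause of the changes was not tested.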
